A study of Mus musculus with 8 samples.

Results

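Ros1 and Met, 2 receptor tyrosine kinases of duct epithelium, were examined together with their ligands Nell2 and Hgf and with Ptpn6, the phosphatase that restrains ROS1. The 5 genes were matched by symbol to the Ensembl identifiers of a count table of 46517 genes, and all 5 were found. Ros1 and Met were selected on their log2 fold changes, lower under the knockout label, in an earlier fit of these same libraries, so their difference between the groups is given as a description, with no test. The ligands and the phosphatase were taken for their biology, and their rows of the fit across all genes are given with the test.

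Epididymal ducts, which form from the Wolffian duct, were dissected from mouse embryos at E18.5, and total RNA was sequenced. The 4 libraries labelled Ptk7 cKO (numbered 1, 2, 4 and 5) came from Ptk7 Xst87/flox embryos, in which 1 Ptk7 allele is disrupted and the other is floxed. The 4 control libraries (numbered 1, 3, 4 and 6) came from Ptk7 +/flox embryos. Both groups carried the T-Cre transgene and the mT/mG reporter. T-Cre is driven by the promoter of Brachyury, which is active in early mesoderm, so recombination is not limited to the duct. PTK7 is a cell-surface pseudokinase of planar cell polarity signalling. Nothing in the labels ties a library to 1 embryo, a litter or a pool, so the p-values measure the spread between these libraries, which may be partly technical. Total counts per library lay between 24807970 and 29590547.

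Ptk7 itself stood at 7.33, 7.59 and 12.5 CPM (counts scaled to the TMM-adjusted library total) in the libraries labelled Ptk7 cKO 1, 2 and 4, and at 194 CPM in the library labelled Ptk7 cKO 5. The controls 1, 3, 4 and 6 had 189, 112, 313 and 169 CPM. The library labelled Ptk7 cKO 5 thus goes against its label, and each group value below is given with it and, where stated, without it.

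Hepatocyte growth factor (HGF) is the ligand of MET. Mesenchymal cells secrete it as an inactive precursor, which serine proteases cleave into its active form. Activated MET recruits adaptors such as GAB1 and GRB2 and drives growth and branching of many epithelia. In the mouse, ROS1 in the epididymal epithelium is activated by NELL2, a glycoprotein that testicular germ cells release into the lumen and that reaches the duct with the luminal fluid. This lumicrine signal is needed for the initial segment to differentiate after birth. PTPN6 (SHP-1), best known from blood cells, binds ROS1 and dampens its signal in the epididymis.

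The bases before the start sites of Ros1 and Met are shown because both transcripts were lower in the same libraries. They are RefSeq sequences of build GRCm38.p6, read 5′ to 3′ on each gene's own strand, and they end before the first exon base of the gene in the count table. Ros1 is given for chr10:52195245-52195494 (minus strand) and Met for chr6:17463707-17463799 (plus strand). Capitals mark matches, on either strand, to GGGCGG (GC box), CANNTG (E-box), TGANTCA (AP-1), AACNNGTT (Grainyhead), CCGGAAG (ETS), CCAAT or TATAAA (the last a TATA box). No match overlapped one of another motif.
Ros1: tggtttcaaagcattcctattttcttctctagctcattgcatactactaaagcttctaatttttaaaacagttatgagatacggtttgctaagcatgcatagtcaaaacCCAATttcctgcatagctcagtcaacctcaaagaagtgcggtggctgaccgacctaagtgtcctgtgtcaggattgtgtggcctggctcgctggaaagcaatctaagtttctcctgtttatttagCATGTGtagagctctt
Met: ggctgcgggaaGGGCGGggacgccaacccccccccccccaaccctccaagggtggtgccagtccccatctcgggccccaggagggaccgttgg
The Ros1 stretch held 1 CCAAT box and 1 E-box, and the Met stretch held 1 GC box. Over the full 250 bases before each RefSeq start, Ros1 had 41.6% G and C and 4 CpG pairs. Met had 74.0% and 24 CpG pairs over its own 250 bases, with 3 GC boxes, 1 E-box and 1 AP-1 motif. Only the 93 bases shown for Met lie before its first exon base in the count table. The E-box, the AP-1 motif and the other GC boxes lie past that point, unlike the matches of Ros1. Over 32851 such 250-base windows in the genome the median was 52.4% G and C and 6.0 CpG pairs. A CCAAT box was held by 33.8% of these windows, an E-box by 66.2%, a GC box by 32.7% and an AP-1 motif by 6.75%. The Grainyhead, ETS and TATA box motifs, present in 3.64%, 6.91% and 12.4% of windows, had no match in either 250-base window. These matches describe letters and not bound sites.

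Within a library, levels of different genes were compared per exon length, as TPM, the count per exon length scaled to a common total. In the libraries labelled Ptk7 cKO the order was Met (10.3 ± 1.67 TPM), Ptpn6 (6.20 ± 0.818), Nell2 (2.57 ± 0.517), Ros1 (1.60 ± 0.211) and Hgf (0.994 ± 0.478; SD, n = 4 each). In controls it was Met (14.6 ± 2.28 TPM), Ptpn6 (5.88 ± 1.06), Ros1 (2.54 ± 0.244), Nell2 (2.13 ± 0.299) and Hgf (0.917 ± 0.0953; SD, n = 4 each). By these means Ros1 and Nell2 changed places, a description that contains the difference for which Ros1 was picked. In control 1 Nell2 also stood above Ros1 (2.53 against 2.40 TPM). Their ranges did not overlap in the libraries labelled Ptk7 cKO (Ros1 1.40 to 1.89 TPM, Nell2 1.90 to 3.11 TPM), though by a narrow margin, and did overlap in controls (2.40 to 2.90 and 1.80 to 2.53 TPM). Hgf (0.650 to 1.70 TPM) overlapped Ros1 in the libraries labelled Ptk7 cKO through Ptk7 cKO 4 alone. Ptk7 cKO 1, 2 and 5 had 0.650, 0.860 and 0.766 TPM of Hgf, below every Ros1 value. In controls Hgf (0.842 to 1.06 TPM) did not overlap Ros1. All of these are modest levels: in controls Met stood at the 55.9th percentile of the 16469 genes tested, Ptpn6 at the 35.3rd, Ros1 at the 21.9th, Nell2 at the 19.5th and Hgf at the 10.5th. The counts behind single values ran from 63 (Hgf) to 1901 (Met), so counting error alone was between 12.6% and 2.29% of a value. These errors cover counting only.

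**Figure D1:**
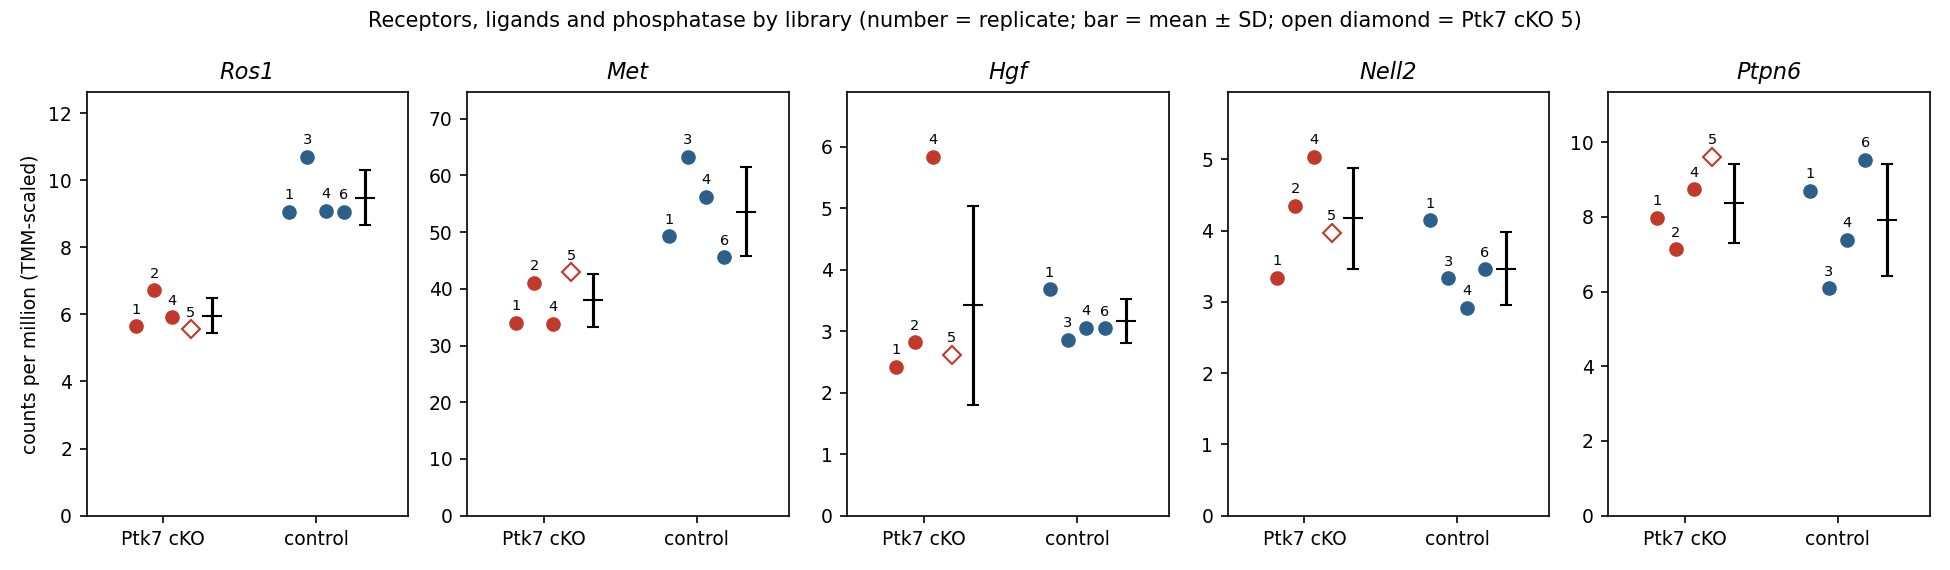
Each panel shows 1 gene, with CPM on the vertical axis starting at 0 and the libraries labelled Ptk7 cKO left of the controls. Points are single libraries with their numbers, the open diamond is Ptk7 cKO 5, and bars are mean ± SD (n = 4). Ros1 (5.56 to 6.72 against 9.05 to 10.7 CPM) and Met (33.8 to 42.9 against 45.6 to 63.3 CPM) separate by label, and Hgf has a single high library at 5.84 CPM.

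Among the receptors, Ros1 (ENSMUSG00000019893; GRCm38 chromosome 10, 52045721 to 52195244, minus strand, 45 exon blocks) had 5.64, 6.72, 5.92 and 5.56 CPM in the libraries labelled Ptk7 cKO 1, 2, 4 and 5. Controls 1, 3, 4 and 6 had 9.05, 10.7, 9.08 and 9.05 CPM. Every library labelled knockout lay below every control. The library labelled Ptk7 cKO 5, with Ptk7 at the control level, was the lowest, and control 3 stood above the other controls. The mean was 5.96 ± 0.527 CPM in the libraries labelled Ptk7 cKO and 9.47 ± 0.814 CPM in controls (SD, n = 4 each), or 62.9% of control. The log2 fold change was -0.67 (SE 0.12), and -0.64 (SE 0.13) without the library labelled Ptk7 cKO 5. Of the 16469 genes tested, 217 had a lower log2 fold change than Ros1. The unadjusted and adjusted p of Ros1 are not given, since it was picked for this difference.

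Met (ENSMUSG00000009376; GRCm38 chromosome 6, 17463800 to 17573980, plus strand, 22 exon blocks) had 34.0, 41.1, 33.8 and 42.9 CPM in the libraries labelled Ptk7 cKO 1, 2, 4 and 5. Controls 1, 3, 4 and 6 had 49.3, 63.3, 56.2 and 45.6 CPM. Here too the groups did not overlap, but the margin was narrow: the library labelled Ptk7 cKO 5 was the highest of its group at 42.9 CPM and control 6 the lowest at 45.6 CPM. The mean was 38.0 ± 4.72 CPM in the libraries labelled Ptk7 cKO and 53.6 ± 7.82 CPM in controls (SD, n = 4 each), or 70.8% of control. The log2 fold change was -0.50 (SE 0.12), and -0.56 (SE 0.13) without the library labelled Ptk7 cKO 5. A lower log2 fold change was found in 440 genes. Groups did not overlap in 2 of the 5 genes, Ros1 and Met. Over all genes tested 5.76% did not overlap in either direction, while 3.11% lay wholly lower and 2.65% wholly higher in the libraries labelled Ptk7 cKO. Since this contrast chose both receptors, nothing is read from that count.

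The ratio of Ros1 to Met within a library, in TPM, was 0.164, 0.161, 0.173 and 0.128 in the libraries labelled Ptk7 cKO 1, 2, 4 and 5. It was 0.181, 0.167, 0.160 and 0.196 in controls 1, 3, 4 and 6. The ranges of the groups overlapped, with the lowest ratio in the library labelled Ptk7 cKO 5. Deviations from the group means, which do not carry the difference between the groups, gave r = 0.55 and rho = 0.31 between Ros1 and Met over 8 libraries (exact two-sided permutation p within groups = 0.252 and 0.462). Over the 10 pairs among the 5 genes, the Benjamini-Hochberg adjusted values were 0.63 and 0.687. The relation did not pass. Without the 2 libraries farthest from the median of Ros1 the r was -0.49. Dropping extremes leaves little spread in Ros1, so that value cannot say what the relation rests on.

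Both receptors are known from epithelium, and markers of duct epithelium were examined beside them. Which cells the receptor reads came from was not tested. All 22 listed markers passed the filter on low counts and none was at 0. Their summed level lay between 1419 and 1942 CPM in the libraries labelled Ptk7 cKO and between 1684 and 1974 CPM in controls, so the groups overlapped. In edgeR 12 of the 22 were lower and 1 was higher at an unadjusted p under 0.05. Over all genes the shares were 4.87% lower and 3.50% higher. This list and the marker lists below were chosen with earlier results of these data known, so shares set beside all genes are descriptions. Adjusted over all genes, 0 of the 22 passed in edgeR, while DESeq2 called 4, all lower. These were Lhx1 and Ehf, which encode transcription factors, Esrp1, an epithelial splicing regulator, and Cdh1, E-cadherin. Of all genes tested DESeq2 called 0.777% as lower and 0.352% as higher. Lhx1 had 24.4 ± 3.26 CPM in the libraries labelled Ptk7 cKO and 39.0 ± 6.15 CPM in controls (SD, n = 4 each; log2 fold change -0.67, SE 0.13). The marker that was higher was the keratin Krt19 (101 ± 22.8 CPM in the libraries labelled Ptk7 cKO and 72.7 ± 11.6 CPM in controls; log2 fold change 0.47, SE 0.16). The counts were 11 and 1 without the library labelled Ptk7 cKO 5. The median log2 fold change of the list was -0.27, against 0.01 over all genes tested. Of 8 smooth muscle markers 4 were lower and 1 higher at an unadjusted p under 0.05 (2541 to 3237 CPM in the libraries labelled Ptk7 cKO and 3254 to 3880 CPM in controls). Of 7 mesothelium markers 4 were higher and 0 lower (630 to 805 and 494 to 599 CPM in the same order), and DESeq2 called 3 of them, Myrf, Wt1 and Upk1b, as higher. Endothelium markers were higher or lower in 0 of 8. The most abundant epithelial markers were Epcam, an adhesion molecule of epithelia (238 ± 40.1 CPM in the libraries labelled Ptk7 cKO and 270 ± 16.4 CPM in controls), and the keratin Krt8 (246 ± 51.7 and 227 ± 43.7 CPM), and neither passed unadjusted.

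Set against the mean log2 CPM of those 22 markers, Ros1 was at -2.95, -3.00, -2.73 and -3.09 in the libraries labelled Ptk7 cKO 1, 2, 4 and 5. In controls 1, 3, 4 and 6 this difference was -2.61, -2.36, -2.72 and -2.44. The groups touched without overlapping, with Ptk7 cKO 4 and control 4 side by side. The mean was -2.94 ± 0.15 in the libraries labelled Ptk7 cKO and -2.53 ± 0.16 in controls (SD, n = 4 each), a difference of -0.41, while the markers' own mean differed by -0.25. For Met the same measure was -0.37, -0.40, -0.23 and -0.16 in the libraries labelled Ptk7 cKO, against -0.17, 0.20, -0.10 and -0.11 in controls. Its groups overlapped narrowly, since the library labelled Ptk7 cKO 5 stood just above control 1 (-0.16 against -0.17). The means of Met differed by -0.25. The markers' own log2 fold changes ran from -0.67 (Lhx1) to 0.47 (Krt19), so these differences depend on which markers are averaged. No test is given for these differences, which contain the contrast that chose the receptors. In bulk tissue, fewer epithelial cells and less receptor RNA per epithelial cell cannot be told apart, and the part of the markers in the receptor values was not tested.

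**Figure D2:**
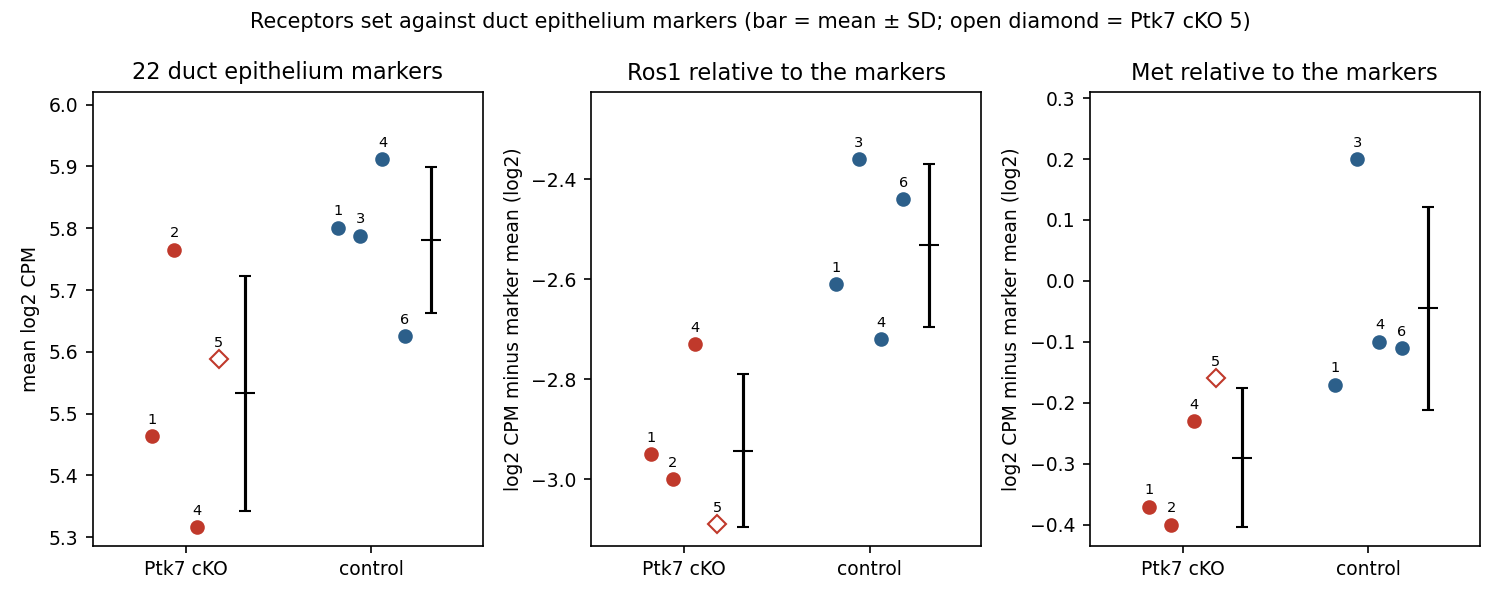
The left panel gives the mean log2 CPM of 22 duct epithelium markers per library, and the other panels give log2 CPM of Ros1 and Met minus that mean. Points are libraries with their numbers, the open diamond is Ptk7 cKO 5, and bars are mean ± SD (n = 4); the libraries labelled Ptk7 cKO stand left of the controls. The groups of Ros1 touch without overlapping (-3.09 to -2.73 against -2.72 to -2.36). Those of Met overlap by a similarly narrow margin (-0.40 to -0.16 against -0.17 to 0.20).

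Among the ligands, Hgf (ENSMUSG00000028864; GRCm38 chromosome 5, 16553495 to 16620152, plus strand, 19 exon blocks) had 2.42, 2.82, 5.84 and 2.62 CPM in the libraries labelled Ptk7 cKO 1, 2, 4 and 5. Controls 1, 3, 4 and 6 had 3.68, 2.86, 3.06 and 3.05 CPM. Ptk7 cKO 4 lay above every control, while the other 3 libraries of its group lay below every control. The mean was 3.42 ± 1.62 CPM in the libraries labelled Ptk7 cKO and 3.16 ± 0.353 CPM in controls (SD, n = 4 each). The log2 fold change was 0.12 (SE 0.28, 95% interval -0.49 to 0.73), which did not pass in edgeR's quasi-likelihood test (adjusted p = 0.922). Leaving out Ptk7 cKO 4 turned it to -0.27 (SE 0.17, edgeR adjusted p = 0.782). The value came to 0.23 (SE 0.29) once the library labelled Ptk7 cKO 5 was left out. The table also holds a second gene on the same strand, Gm43489, that shares 484 exon bases with Hgf, with 0 to 6 counts per library.

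The ratio of Hgf to Met in TPM was 0.0760, 0.0734, 0.185 and 0.0653 in the libraries labelled Ptk7 cKO 1, 2, 4 and 5. In controls 1, 3, 4 and 6 it was 0.0796, 0.0483, 0.0582 and 0.0716. Outside Ptk7 cKO 4 the groups lay in a similar range. Markers of mesenchyme, the tissue that makes HGF, had a summed level of 17748 to 23141 CPM in the libraries labelled Ptk7 cKO and 15902 to 20809 CPM in controls, with all 12 markers detected. At an unadjusted p under 0.05, 0 of the 12 were higher and 1 was lower, where all genes had 3.50% and 4.87%, and their part in the Hgf values was not tested.

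Nell2 (ENSMUSG00000022454; GRCm38 chromosome 15, 95219451 to 95528706, minus strand, 22 exon blocks) had 3.34, 4.35, 5.04 and 3.97 CPM in the libraries labelled Ptk7 cKO 1, 2, 4 and 5. Controls 1, 3, 4 and 6 had 4.15, 3.33, 2.92 and 3.46 CPM. The groups overlapped, with Ptk7 cKO 4 highest and control 4 lowest. The mean was 4.17 ± 0.712 CPM in the libraries labelled Ptk7 cKO and 3.46 ± 0.510 CPM in controls (SD, n = 4 each). The log2 fold change of 0.27 (SE 0.18, 95% interval -0.12 to 0.66) did not pass in edgeR (adjusted p = 0.714), and it was 0.29 (SE 0.20) without the library labelled Ptk7 cKO 5. The ratio of Nell2 to Ros1 in TPM was 1.36, 1.49, 1.95 and 1.64 in the libraries labelled Ptk7 cKO 1, 2, 4 and 5, against 1.05, 0.715, 0.739 and 0.877 in controls 1, 3, 4 and 6. That ratio contains Ros1 and is given as a description.

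Germ cells, the known source of NELL2 in the testis, left few reads: 8 markers summed to 3.76 to 7.10 CPM in the libraries labelled Ptk7 cKO and 4.03 to 6.44 CPM in controls. Tdrd1 (2.16 CPM in the libraries labelled Ptk7 cKO and 2.72 CPM in controls) and Nanos3 (1.45 and 1.37 CPM) were the most abundant. Nanos2, a marker of male germ cells, had 0 counts in every library, which allows at most 0.101 to 0.121 CPM per library (3 counts). Of the 4 that passed the filter, 0 were higher or lower at an unadjusted p under 0.05, against 8.37% of all genes. Markers of testis somatic cells summed to 28.1 to 40.8 CPM in the libraries labelled Ptk7 cKO and 31.8 to 39.0 CPM in controls. The most abundant were Sox9 (13.1 CPM in the libraries labelled Ptk7 cKO and 12.9 CPM in controls) and Aard (15.5 and 10.4 CPM). Insl3, Hsd3b1, Cyp17a1 and Amh were below the filter. The sums hide opposite directions: Aard was higher at an unadjusted p under 0.05 (log2 fold change 0.57). Cyp11a1 (-0.78) and Nr5a1 (-0.79) were lower, and 0 of the 6 tested passed adjusted in edgeR. Neuron and Schwann cell markers, of interest because neurons also express Nell2, summed to 101 to 149 CPM in the libraries labelled Ptk7 cKO and 89.0 to 107 CPM in controls. All 12 were detected, and 3 of the 10 that passed the filter were higher and 0 lower at an unadjusted p under 0.05, against 3.50% and 4.87% of all genes. In edgeR 0 of the 10 passed when adjusted over all genes. DESeq2 called 1, Hand2, as higher, against 0.352% of all genes. Stmn2, a neuronal microtubule regulator, had 74.0 CPM in Ptk7 cKO 4 and 37.7 to 52.1 CPM in the others of that group, against 28.5 to 38.5 CPM in controls. Erbb3, a neuregulin receptor of Schwann cells and the other of the 2 most abundant markers, had 25.5 ± 3.76 CPM in the libraries labelled Ptk7 cKO and 29.0 ± 3.63 CPM in controls (log2 fold change -0.19, SE 0.12). The summed level was highest in Ptk7 cKO 4 (149 CPM), but the mean log2 CPM of the list was highest in Ptk7 cKO 1 (2.239, against 2.133 in Ptk7 cKO 4), the library with the lowest Nell2 of its group. Set against that mean, log2 CPM of Nell2 had an SD of 0.34 in the libraries labelled Ptk7 cKO and 0.41 in controls, wider than that of Nell2 itself (0.225 within groups). The part of these cells in the Nell2 values was not tested.

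Hgf and Nell2 were both highest in Ptk7 cKO 4. Their deviations from the group means gave r = 0.77 and rho = 0.69 over 8 libraries (exact two-sided permutation p within groups = 0.0243 and 0.059). Adjusted over the 10 pairs these were 0.121 and 0.295, and without the 2 libraries farthest from the median of Hgf the r was 0.38. The relation did not pass, and since dropping extremes narrows the spread of Hgf, the last value cannot say what it rests on.

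Ptpn6 (ENSMUSG00000004266; GRCm38 chromosome 6, 124720707 to 124738714, minus strand, 16 exon blocks) had 7.98, 7.13, 8.74 and 9.61 CPM in the libraries labelled Ptk7 cKO 1, 2, 4 and 5. Controls 1, 3, 4 and 6 had 8.69, 6.09, 7.38 and 9.52 CPM, so that the groups covered much the same range. The mean was 8.37 ± 1.06 CPM in the libraries labelled Ptk7 cKO and 7.92 ± 1.51 CPM in controls (SD, n = 4 each). The log2 fold change was 0.08 (SE 0.16, 95% interval -0.27 to 0.43; edgeR adjusted p = 0.905), and 0.01 (SE 0.17) without the library labelled Ptk7 cKO 5. An opposite-strand gene, Gm20531, shares 195 exon bases with Ptpn6 and had 0 to 3 counts per library.

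Blood cell markers, 14 of 14 detected, summed to 354, 288, 325 and 389 CPM in the libraries labelled Ptk7 cKO 1, 2, 4 and 5, and to 322, 239, 300.0 and 340 CPM in controls 1, 3, 4 and 6. In each group the library with the lowest sum also had the lowest Ptpn6. Against the mean log2 CPM of these markers, Ptpn6 lay between -1.17 and -0.93 in the libraries labelled Ptk7 cKO and between -1.10 and -0.87 in controls. This spread is smaller than that of Ptpn6 itself, with an SD of 0.10 in each group against 0.236 for log2 CPM of Ptpn6 within groups. Csf1r, the receptor that macrophages need, had 53.0 ± 8.63 CPM in the libraries labelled Ptk7 cKO and 48.8 ± 10.5 CPM in controls. Whether Ptpn6 reads came from epithelium or from blood cells was not tested.

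The deviations of Ros1 and Ptpn6 ran opposite to each other (r = -0.81, rho = -0.76 over 8 libraries; exact two-sided permutation p within groups = 0.0226 and 0.0312). Adjusted over the 10 pairs the values were 0.121 and 0.295, and without the 2 libraries farthest from the median of Ros1 the r was -0.19. The relation did not pass, and with little spread left in Ros1 the last value cannot say what it rests on.

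No gene of the whole table passed an adjusted p of 0.05 in edgeR (0%, 0 of 16469, with 1379 at an unadjusted p under 0.05), while DESeq2 called 186 (1.13%), of which 128 were lower (0.777%) and 58 higher (0.352%) in the libraries labelled Ptk7 cKO. Among the 5 genes DESeq2 called the 2 that were selected on this contrast, and nothing is read from that count. The pathways around the receptors were described by lists of 69 genes, of which 68 were found and 54 passed the filter. The lists were chosen with earlier results of these data known, so their shares beside all genes are descriptions. At an unadjusted p under 0.05 in edgeR, 3 of the 54 were higher (5.56%) and 6 lower (11.1%), where all genes had 3.50% and 4.87%. Without the library labelled Ptk7 cKO 5 the counts were 2 and 4, and all genes then had 3.74% and 5.0%. DESeq2 called 0 of the 54. The median log2 fold change of the 54 was -0.02, against 0.01 over all genes tested.

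In the step that activates HGF, 1 of the 6 genes tested was higher and 1 lower at an unadjusted p under 0.05, and 1 and 0 without the library labelled Ptk7 cKO 5. Plat, the tissue plasminogen activator, had 84.1, 77.4, 90.5 and 84.1 CPM in the libraries labelled Ptk7 cKO 1, 2, 4 and 5, and 73.2, 73.2, 68.2 and 70.5 CPM in controls 1, 3, 4 and 6. Its groups did not overlap, which held for 5.76% of all genes tested. The log2 fold change was 0.24 (SE 0.07, edgeR adjusted p = 0.309). In these pathway lists genes with the smallest p are named, so their non-overlap is a description. Spint1, an inhibitor of the proteases that activate HGF, had 19.2, 23.0, 16.6 and 16.2 CPM in the libraries labelled Ptk7 cKO, and 24.9, 25.3, 26.5 and 19.8 CPM in controls. Its groups overlapped (log2 fold change -0.36, SE 0.13, edgeR adjusted p = 0.480). Its relative Spint2 (146 ± 23.6 CPM in the libraries labelled Ptk7 cKO and 167 ± 10.9 in controls) and the activating protease Hpn, or hepsin (18.1 ± 2.81 and 22.2 ± 4.75 CPM), did not pass even unadjusted. The dedicated HGF activator Hgfac was at 0.211 ± 0.207 CPM in the libraries labelled Ptk7 cKO and 0.151 ± 0.0484 CPM in controls, below the filter.

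Of 17 co-receptors and regulators of MET turnover, 1 was higher and 2 lower at an unadjusted p under 0.05. Leaving out the library labelled Ptk7 cKO 5 gave 0 higher and 1 lower. Itgb4, the integrin beta 4 chain of hemidesmosomes, had 4.87, 5.99, 4.16 and 5.85 CPM in the libraries labelled Ptk7 cKO 1, 2, 4 and 5, and 7.47, 6.96, 6.26 and 6.95 CPM in controls 1, 3, 4 and 6. Its groups did not overlap (log2 fold change -0.40, SE 0.15, edgeR adjusted p = 0.478). Nrp1, neuropilin 1, had 152 ± 18.1 CPM in the libraries labelled Ptk7 cKO and 185 ± 28.1 CPM in controls (log2 fold change -0.28, SE 0.12, edgeR adjusted p = 0.550). Sh3kbp1, the endocytic adaptor CIN85, had 55.4 ± 1.75 and 50.1 ± 1.74 CPM in the same order, without overlap (0.14, SE 0.06, edgeR adjusted p = 0.574). Dcn, or decorin, a matrix proteoglycan that binds MET, was the most abundant of the list (1658 ± 98.1 and 1594 ± 102 CPM).

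Of 17 adaptors that serve both receptors, 0 were higher and 1 was lower at an unadjusted p under 0.05. That gene was Gab1, the main docking protein of MET, with 97.3, 101, 94.6 and 106 CPM in the libraries labelled Ptk7 cKO 1, 2, 4 and 5, and 116, 135, 118 and 106 CPM in controls 1, 3, 4 and 6. The groups did not overlap, but the library labelled Ptk7 cKO 5 and control 6 were equal to 3 digits. The log2 fold change was -0.25 (SE 0.08, edgeR adjusted p = 0.389). The adaptor Shc1 had 266 ± 12.9 CPM in the libraries labelled Ptk7 cKO and 229 ± 44.6 CPM in controls. The kinase Src had 73.9 ± 2.53 and 63.3 ± 12.2 CPM, without overlap. The groups of Grb2 did not overlap either (104 ± 0.888 and 95.6 ± 11.3 CPM in the same order). None of Shc1, Src and Grb2 passed unadjusted. Control 3 held the lowest value of Shc1 (165 CPM) and of Src (45.0 CPM).

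Of 17 genes tied to ROS1 and the lumicrine pathway, 10 passed the filter, 1 was higher and 2 were lower at an unadjusted p under 0.05. Dusp6, a phosphatase induced by ERK activity, had 39.9, 44.9, 43.0 and 40.3 CPM in the libraries labelled Ptk7 cKO 1, 2, 4 and 5, and 36.4, 34.1, 32.1 and 37.6 CPM in controls 1, 3, 4 and 6. Its groups did not overlap (log2 fold change 0.26, SE 0.08, edgeR adjusted p = 0.358). Etv1, an ETS transcription factor, had 15.2, 17.4, 17.9 and 12.8 CPM against 20.7, 24.9, 18.6 and 18.7 CPM in controls, again without overlap (-0.39, SE 0.13, edgeR adjusted p = 0.432). Ggt1, a glutathione-cleaving enzyme of the adult epididymis, had 41.9 ± 10.4 CPM in the libraries labelled Ptk7 cKO and 54.0 ± 7.09 CPM in controls (-0.37, SE 0.16, edgeR adjusted p = 0.596). Other genes of ERK feedback did not pass: Spry1 had 74.1 ± 7.73 and 74.3 ± 8.15 CPM in the same order, and Etv5 30.8 ± 3.65 and 30.8 ± 3.24 CPM.

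Most listed genes of the differentiated initial segment were at or near 0. Ovch2, the protease that lumicrine signalling switches on in the adult mouse, had 0.595 ± 0.201 CPM in the libraries labelled Ptk7 cKO and 0.897 ± 0.237 CPM in controls (log2 fold change -0.60, SE 0.32, edgeR adjusted p = 0.675). Cst8, Lcn8, Lcn9 and Adam28 had at most 0.123 CPM in any library. Slc9a3, a sodium-proton exchanger, had 0 counts in every library. Nell1, the relative of Nell2, was at 12.2 ± 1.34 CPM in the libraries labelled Ptk7 cKO and 11.5 ± 1.81 CPM in controls, and Robo3, a NELL2 receptor of axons, was below the filter.

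Of 7 related receptors and ligands 4 passed the filter, and 0 were higher and 0 lower at an unadjusted p under 0.05. Mst1r, the closest relative of MET, had 12.4 ± 0.665 CPM in the libraries labelled Ptk7 cKO and 11.2 ± 1.66 CPM in controls (log2 fold change 0.14, SE 0.12, 95% interval -0.13 to 0.41). The insulin receptor Insr had 36.3 ± 3.43 and 37.4 ± 5.62 CPM, and Igf1r 39.0 ± 4.80 and 39.6 ± 3.20 CPM, in the same order. Alk and Ltk, relatives of ROS1, were below the filter.

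**Figure D3:**
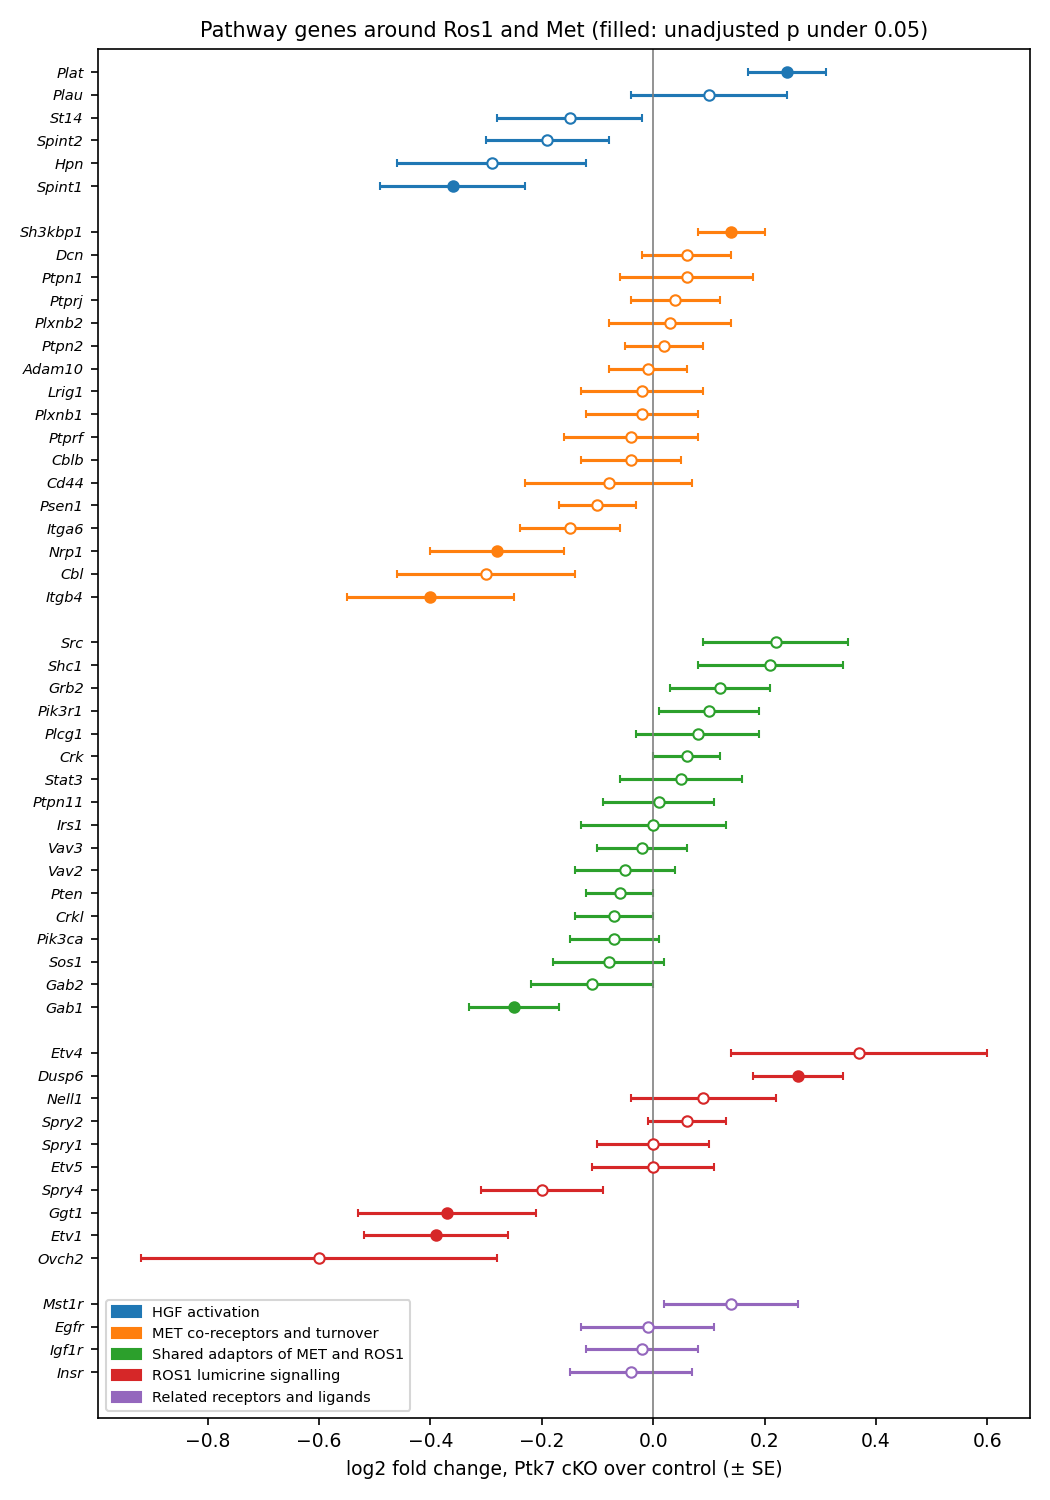
The horizontal axis gives the log2 fold change of the libraries labelled Ptk7 cKO over controls with its SE for the 54 pathway genes tested, coloured by list; filled points have an unadjusted p under 0.05 in edgeR. The 9 filled points are Plat, Sh3kbp1 and Dusp6 above 0 and Spint1, Itgb4, Nrp1, Gab1, Etv1 and Ggt1 below 0.

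Genes with the most similar pattern were sought among 13278 genes by the Pearson r of deviations from the group means over the 8 libraries. The closest to Ros1 were Aldh5a1 (r = 0.99), Zfp101 (0.98) and Gtf2h3 (0.97). Without the 2 libraries farthest from the median of Ros1 these were 0.72, 0.92 and 0.79, and rho over all 8 was 0.81, 0.88 and 0.95. The closest to Met were Dcaf1 (0.99), Xpo5 (0.98) and Med24 (0.98), with 0.99, 0.97 and 0.98 without the 2 libraries farthest for Met. For Hgf they were Pianp, Tshz1 and Adamts6 (0.98, 0.98 and 0.97), and 0.82, 0.87 and 0.86 without the 2 farthest libraries. Pianp had 58.0 CPM in Ptk7 cKO 4 and 20.2 to 22.4 CPM in the other libraries of that label, so it shared the single high library with Hgf. For Nell2 they were St3gal6, Slc41a3 and Ofd1 (0.99, 0.97 and 0.93, and 0.98, 0.95 and 0.94 without the 2 farthest), and for Ptpn6 Cnmd, Gpr179 and Tnfrsf1b (0.99, 0.98 and 0.98, and 0.98, 0.97 and 0.99). These are the extremes of a search over all these genes in the same 8 libraries and carry no test.

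Each library was left out in turn to see which values rest on 1 of them. Ros1 stayed between -0.73 and -0.60 and Met between -0.57 and -0.41 in log2 fold change. Both were picked for this difference and their groups did not overlap, so leaving out 1 library could hardly change their sign. Nell2 ranged from 0.17 to 0.37, Ptpn6 from -0.03 to 0.18, and Hgf from -0.27 to 0.25. Hgf turned round without Ptk7 cKO 4, and Ptpn6 without control 3.

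**Figure D4:**
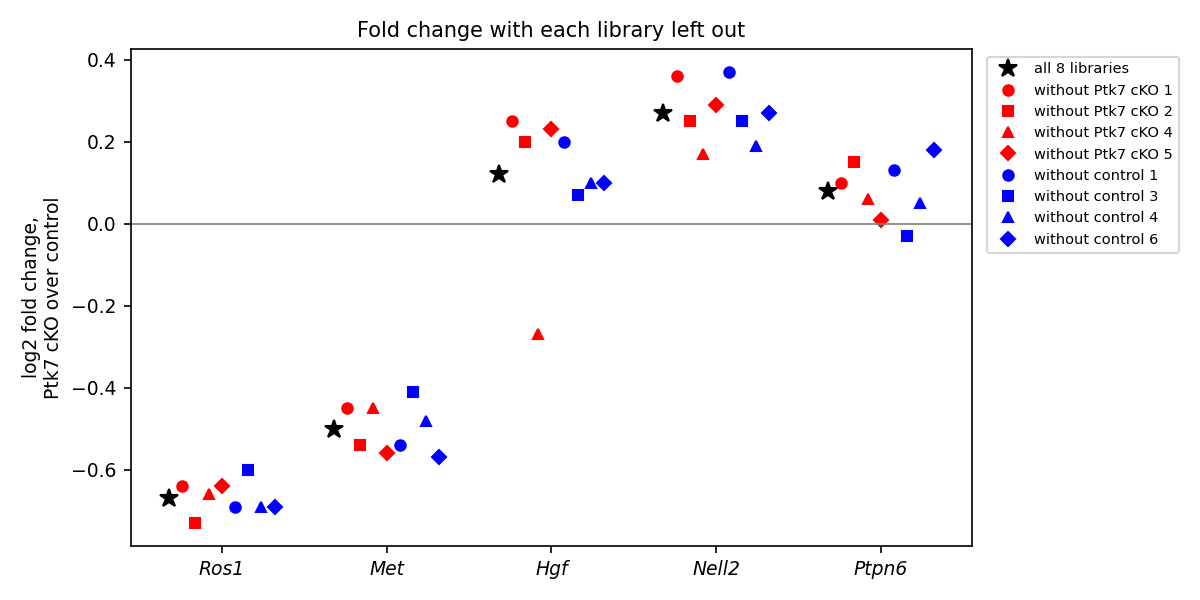
The vertical axis gives the log2 fold change of the libraries labelled Ptk7 cKO over controls for each gene; stars use all 8 libraries, red symbols leave out 1 library labelled Ptk7 cKO and blue symbols 1 control. Ros1 and Met, picked for this difference, stay below 0 throughout, and Hgf is below 0 in 1 of the 8 cases (-0.27 without Ptk7 cKO 4).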

How the data were processed

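RNA of 8 mouse E18.5 duct libraries was measured by RNA sequencing. The authors deposited raw counts per gene, 1 column per library, with the summed exon length of each gene. The submitters' processing notes name STAR, featureCounts and GRCm38. Versions, strand and multi-mapping settings and the annotation were not given in the sources used here, so a gene's reads and those of an antisense neighbour cannot be separated.

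Ensembl identifiers gave a symbol to 46005 genes. The test was edgeR 4.0.16 in R 4.3.3, with TMM factors, filterByExpr (16469 genes kept) and the quasi-likelihood F test over 4 libraries labelled Ptk7 cKO and 4 controls, with Benjamini-Hochberg adjustment over all genes at 0.05. The SE is the log2 fold change divided by the square root of F, and intervals use the moderated degrees of freedom. CPM are TMM-scaled, log2 CPM use a prior count of 2, and TPM use the deposited exon lengths. The biological coefficient of variation was 15.2%. Alternatives used DESeq2 1.42.0, limma 3.58.1 (voom with quality weights), other scaling factors and filters, a replicate block and each library left out. The code was tested on simulated data. Figures were drawn with matplotlib 3.10.9.

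The genes and lists were chosen with earlier results of these data known. The rule for naming genes took the 5 studied and, per pathway list, the 3 with the smallest p and the 2 most abundant. Per marker list it took the 2 most abundant. It also took the 3 genes most similar to each of the 5 (mean CPM of at least 1, no predicted names). Some that it picked, such as Acta2, Col3a1, Upk3b, Pecam1, Plxnb2 and Pik3r1, are not described in the text. Genes outside the rule, such as Ovch2, Slc9a3, Nanos2, Hgfac, Nell1, Etv5, Grb2, Krt19, Hand2 and the markers DESeq2 called, were named after their values were seen.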

Additional observations from a re-analysis of the deposited data

Results flagged for a closer look

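Of 44 genes screened in 2 groups of 4 libraries, 5 group values had 1 library far from the other 3, where chance gives about 1 in 20 groups of the 88. Ptk7 was 194 CPM in the library labelled Ptk7 cKO 5, while the other 3 of that label had 7.33 to 12.5 CPM. Hgf was 5.84 CPM in Ptk7 cKO 4, against 2.42 to 2.82 CPM in the others of its group. Ros1 was 10.7 CPM in control 3, and the other controls had 9.05 to 9.08 CPM. Epcam was 298 CPM in Ptk7 cKO 2, and the other 3 of that label had 215 to 221 CPM. Src was 45.0 CPM in control 3, and the other controls had 68.8 to 69.7 CPM.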

How the results depend on the processing

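Ros1 and Met kept their direction and moved by less than the spread between libraries under all 17 alternatives each. Their log2 fold changes were -0.73 to -0.60 and -0.63 to -0.41. Every alternative refits the counts on which both genes were picked, so this is a description and not support. Nell2 stayed above 0 (0.15 to 0.37) and did not pass under any of its 17 alternatives (adjusted p 0.658 to 0.913), nor did Hgf (0.751 to 0.991) or Ptpn6 (0.718 to 0.993). Hgf changed sign under limma voom with quality weights (-0.11) and without Ptk7 cKO 4 and 5 (-0.27), and ranged from -0.27 to 0.25 with 1 library left out. Ptpn6 changed sign in the same 2 settings (-0.04 and -0.06), and ranged from -0.03 to 0.18 with 1 library left out. The number of genes called was 0 in edgeR with all libraries, 1 with no filter on low counts, 186 in DESeq2, 188 in DESeq2 without the library labelled Ptk7 cKO 5, and 3 in edgeR without Ptk7 cKO 4 and 5. It was 0 to 2 with 1 library left out, the 2 without control 1. The cause of these differences was not tested. The fits without Ptk7 cKO 5 in DESeq2 and without Ptk7 cKO 4 and 5 were chosen after seeing the data.

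Title numbers 1 and 4 occur in both groups. Libraries with the same number deviated from their group means with a correlation of -0.09 (number 1) and 0.02 (number 4) over 16469 genes, so the numbers were not taken as pairs. A fit with the replicate block over those 4 libraries called 7 genes and gave log2 fold changes of -0.65 for Ros1 and -0.63 for Met.

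Depth limits Hgf and Nell2 most, with 63 to 153 and 84 to 132 counts per library.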
